A study of Mus musculus with 8 samples.

Results

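The nuclear rescue of Rbfox1 in cultured mouse hippocampal neurons was compared here with the control neurons that received neither the knockdown nor the rescue, to find which gene levels and which cassette exons remained changed, and which passed beyond the control level. Genes were taken by joining the 2 groups' expression tables on the gene identifier and keeping those with at least 1 FPKM (fragments scaled to transcript length and library size) in either group, which gave 12516 of 15682 genes. Exons were taken by joining the 2 groups' splicing tables on the coordinates of all 3 exons of each trio (the cassette exon and its neighbours), which gave 65 of 551 distinct trios. The series holds 8 RNA-seq samples, of which 2 are controls and 2 are nuclear rescues. Only 1 FPKM value and 1 inclusion fraction per group were available, so no spread between samples can be given for any value. Separate cultures for the samples of 1 group are not stated in the labels.

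All cultures were transduced at 9 days in vitro (DIV) for 12 hours with adeno-associated virus of serotype AAV2/9 at 1500 copies per cell, carrying its insert behind the synapsin promoter SynI, which is active in neurons. From 10 DIV they were given siRNA for 4 days, listed at 1.2 mM in the labels, and RNA was taken at 14 DIV. Controls received a vector for EGFP with non-targeting siRNA. The nuclear rescue group carried Flag-Rbfox1_N_siMt, a Flag-tagged nuclear isoform of Rbfox1 whose siMt suffix is taken to mean that the siRNAs do not match it, together with siRNAs against Rbfox1 and Rbfox3. The knockdown group, from which both comparisons were built, carried EGFP and the siRNAs against Rbfox1 and Rbfox3, and the cytoplasmic rescue group carried the cytoplasmic isoform with the same siRNAs. Control and nuclear rescue therefore differed in the siRNA and in the viral insert, and effects of these that do not pass through Rbfox1 or Rbfox3 cannot be told apart from those that do. Rbfox3 was targeted and not resupplied.

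Rbfox proteins are RNA-binding regulators that recognise the motif UGCAUG, and in the nucleus they promote or repress the use of an exon depending on where they bind relative to it. Rbfox1, Rbfox2 and Rbfox3 are closely related. Rbfox3 is the antigen known as NeuN, a widely used marker of mature neurons. Splicing near the end of the Rbfox1 transcript yields proteins that reside mainly in the nucleus or mainly in the cytoplasm, and the cytoplasmic form binds mature messenger RNAs and affects their levels.

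The 3 Rbfox genes were examined first, since they check the labels of the knockdown and of the rescue. Rbfox1 (chr16:5884886-7412573, mm9) stood at 25.7 FPKM in the control, 1.94 in the knockdown and 38.2 in the nuclear rescue. The nuclear rescue was therefore above the control, by a log2 ratio of 0.57 with an error of 0.23, which did not pass the test described next (adjusted p = 0.4997). With the larger of the 2 implied errors alone, the less cautious choice described there, Rbfox1 was called higher than the control (adjusted p = 0.0399 by the z test). Reads of the endogenous gene and of the viral insert cannot be told apart in this value. Rbfox3 (chr11:118351074-118770886) stood at 12.4 FPKM in the control, 1.59 in the knockdown and 1.53 in the nuclear rescue, so the rescue left it at the knockdown level (log2 ratio -3.02, error 0.27, adjusted p = 4.28e-25). Rbfox2 (chr15:76909420-77137483), which no siRNA targeted, stood at 35.4 FPKM in the control, 42.1 in the knockdown and 17.7 in the nuclear rescue. It was lower in the nuclear rescue than in the control (log2 ratio -1.003, error 0.24, adjusted p = 0.00645), although it was not lower in the knockdown, and its value in the cytoplasmic rescue was 33.2 FPKM.

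The test of a gene used the errors that the authors' tables imply. Each table gives a log2 fold change and a test statistic against the knockdown, and their quotient is the implied error of that fold change. The log2 ratio of nuclear rescue over control is the sum of the 2 fold changes, its error is the root of their summed squares, and the ratio over its error was read as a normal z score with Benjamini-Hochberg adjustment over all genes tested. The knockdown group enters both fold changes and cancels in the ratio, but its part of the error is still counted, so the test is cautious. Of 12516 genes, 12309 had a usable error and were tested. Of these, 101 (0.821%) passed an adjusted p of 0.05, with 71 (0.577%) lower and 30 (0.244%) higher in the nuclear rescue. The median log2 ratio over all genes tested was 0.01 and the median error 0.22. A change of 2-fold or more was seen in 57 genes downward and 13 upward among those tested, 0.569% of all tested. With genes that had no usable error added, 98 of 12499 genes (0.784%) changed by that much, 68 downward and 30 upward. With the larger of the 2 implied errors alone, a less cautious choice, 402 genes (3.27%) passed, 235 (1.91%) lower and 167 (1.36%) higher.

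**Figure D1:**
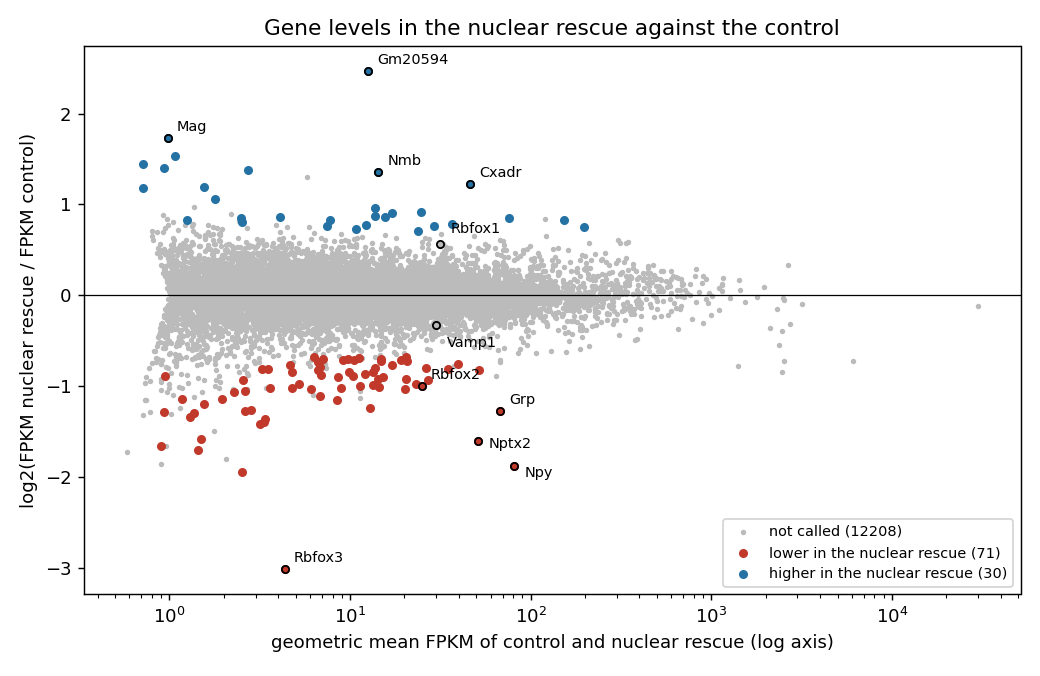
Log2 ratio of FPKM in the nuclear rescue over the control (vertical axis) against the geometric mean FPKM of both groups (horizontal log axis), 1 point for each of the 12309 genes tested. Red points are the 71 lower genes, blue points the 30 higher genes, grey points those not called. Rbfox3 lies lowest at -3.02 and Gm20594 highest at 2.47, while Rbfox1 and Vamp1 lie among the genes not called.

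The genes that the knockdown had changed were then followed into the nuclear rescue. The authors' deposited table called 367 genes in the knockdown against the control at a q-value below 0.05 (2.35% of its genes), and 310 of them were tested here, 201 that had fallen and 109 that had risen. The 2 comparisons share the control values, so the values below are a description, and nothing is drawn from how often they point the same way. The fallen genes had a median log2 ratio over the control of -0.74 in the knockdown, -0.71 in the nuclear rescue and -0.63 in the cytoplasmic rescue. The risen genes had medians of 0.64, 0.58 and 0.42 in the same order. Expressed per gene, the share of the knockdown's log2 change that remained in the nuclear rescue had a median of 96.5% for the fallen genes (quartiles 82.4% and 107%) and 91.4% for the risen genes (quartiles 76.6% and 108%). By the z test against the control, 70 of the 201 were lower in the nuclear rescue and 23 of the 109 were higher, where 0.577% of all genes tested were lower and 0.244% higher. Because the control values are shared, nothing is read from these shares.

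Several neuropeptide precursors were among the genes lower in the nuclear rescue than in the control. Npy, the precursor of neuropeptide Y, stood at 155 FPKM in the control, 38.6 in the knockdown and 41.9 in the nuclear rescue, a 3.69-fold lower level than in the control (log2 ratio -1.88, error 0.20, adjusted p = 8.83e-17 by the z test). Grp, the gastrin-releasing peptide precursor, stood at 106 FPKM in the control, 37.5 in the knockdown and 43.5 in the nuclear rescue (log2 ratio -1.28, error 0.19, adjusted p = 4.59e-08). Penk, the enkephalin precursor, stood at 8.64, 3.14 and 4.23 FPKM in the same order (log2 ratio -1.03, error 0.26, adjusted p = 0.0157). In each of these 3 the nuclear rescue lay above the knockdown and below the control. The share of the knockdown's log2 change left was 94.1% for Npy, 85.6% for Grp and 70.5% for Penk. None of them was called in the nuclear rescue against the knockdown by the authors' test. Pnoc (nociceptin precursor, log2 ratio -1.03, adjusted p = 0.0420), Tac1 (substance P precursor, -0.92, adjusted p = 0.00437) and Vip (vasoactive intestinal peptide, -0.90, adjusted p = 0.0155) were lower as well. Nmb, the neuromedin B precursor, went the other way, with 8.97 FPKM in the control, 19.7 in the knockdown and 22.9 in the nuclear rescue (log2 ratio 1.35, error 0.24, adjusted p = 1.76e-05). Of 16 neuropeptide genes tested, 6 were lower, 1 was higher and 9 did not pass, where 0.577% of all genes tested were lower and 0.244% higher. The median log2 ratio of the 16 was -0.59, against 0.01 for all genes tested. The list was chosen with earlier results of these data known, so nothing is read from these shares. Cck, at 194, 122 and 126 FPKM in control, knockdown and nuclear rescue, was among those that did not pass (adjusted p = 0.102), as was Sst, at 23.6, 17.0 and 19.1.

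Several of these peptides are made by inhibitory interneurons, so other genes of that kind were read beside them. Gad2, an enzyme that makes the inhibitory transmitter GABA, stood at 24.4 FPKM in the control, 16.8 in the knockdown and 14.9 in the nuclear rescue (log2 ratio -0.71, error 0.20, adjusted p = 0.04997 by the z test), just inside the threshold. It was the only one of 18 GABA signalling genes tested that passed, where 0.821% of all genes tested did. The list's median was -0.14. With the larger implied error alone, Gabrd, a subunit of GABA receptors, was among those called lower as well, where 1.91% of all genes tested were. Gad1, the other enzyme of GABA synthesis, stood at 87.8, 74.5 and 73.7 FPKM in the same order and did not pass (log2 ratio -0.25). Slc32a1, which loads GABA into synaptic vesicles, stood at 9.36, 8.32 and 10.7 FPKM, highest in the nuclear rescue, and did not pass either (log2 ratio 0.19). Acan, the aggrecan core protein of perineuronal nets, fell from 5.19 FPKM in the control to 1.97 in the knockdown and stood at 1.94 in the nuclear rescue (log2 ratio -1.42, error 0.21, adjusted p = 2.34e-08). Calb2, a calcium-binding protein, went the other way, at 90.1, 171 and 161 FPKM in control, knockdown and nuclear rescue. It fell just outside the threshold (log2 ratio 0.84, adjusted p = 0.05002 by the z test). With the larger implied error alone it was called higher. In these bulk samples, fewer cells of a type and less RNA per cell cannot be told apart.

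Genes with synaptic roles were mostly near the control level, as were all genes tested, of which 0.821% passed. Nptx2, a secreted pentraxin that gathers glutamate receptors at synapses, stood at 88.8 FPKM in the control, 30.1 in the knockdown and 29.1 in the nuclear rescue (log2 ratio -1.61, error 0.20, adjusted p = 5.09e-12 by the z test). Its relative Nptx1, at 87.5, 47.4 and 47.4 FPKM, fell just outside the threshold (log2 ratio -0.88, adjusted p = 0.05002). Of 36 activity-regulated genes tested, Nptx2 was the 1 that passed, and the list's median was -0.11. With the larger implied error alone, 9 of the 36 were called, 7 lower and 2 higher, with Nptx1 and Ptgs2 among them. Over all genes tested, 3.27% were called with that error. The list was chosen with earlier results of these data known, so nothing is read from its share. Syt12, a synaptotagmin of synaptic vesicles, was the 1 of 26 synaptic vesicle genes to pass, at 19.0, 10.7 and 11.5 FPKM (log2 ratio -0.73, adjusted p = 0.0344). None of 21 SNARE and exocytosis genes, 22 glutamate receptor genes, 22 postsynaptic scaffold genes, 31 potassium channel genes, 22 sodium and calcium channel genes or 35 calcium signalling genes passed, and the medians of these lists lay between -0.05 and 0.01. With 0.821% of all genes tested passing, 0 calls in lists of this size do not set them apart from other genes. With the larger error, calls were also made among the scaffold genes (Homer2) and the potassium channel genes (Kcnj9, Kcnip2). The calcium signalling genes had calls as well (Calb2, Cabp7, Necab1, Camkk2), and the other 3 lists had none. Other genes that stayed low at a higher level were Sorcs3, a sorting receptor of neurons (19.8, 8.10 and 8.36 FPKM, log2 ratio -1.24), Trpc6, a cation channel (28.8, 14.2 and 14.1, log2 ratio -1.03), and Cdh13, a cadherin without a transmembrane part (37.4, 19.97 and 19.6, log2 ratio -0.93). Their adjusted p-values were 8.40e-08, 5.20e-05 and 0.000505, and in each the nuclear rescue lay beside the knockdown.

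The 30 higher genes included an adhesion molecule, a filament protein and a transcriptional cofactor. Cxadr, a cell adhesion molecule that also serves as a receptor for coxsackie and adenoviruses, stood at 30.2 FPKM in the control, 74.2 in the knockdown and 70.5 in the nuclear rescue (log2 ratio 1.22, error 0.31, adjusted p = 0.0162 by the z test). Prph, the intermediate filament protein peripherin, stood at 1.68, 3.62 and 4.37 FPKM (log2 ratio 1.38, error 0.29, adjusted p = 0.00105). Lmo1, a LIM-domain transcriptional cofactor, stood at 9.86, 18.2 and 19.2 FPKM (log2 ratio 0.96, adjusted p = 0.00381). In all 3 the control was the lowest of the groups. Efnb3, an ephrin ligand in axon guidance, was the 1 of 36 axon guidance genes to pass, where 0.821% of all genes tested did. It stood at 22.5 FPKM in the control, 44.0 in the knockdown and 38.2 in the nuclear rescue (log2 ratio 0.77, adjusted p = 0.0370 by the z test).

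**Figure D2:**
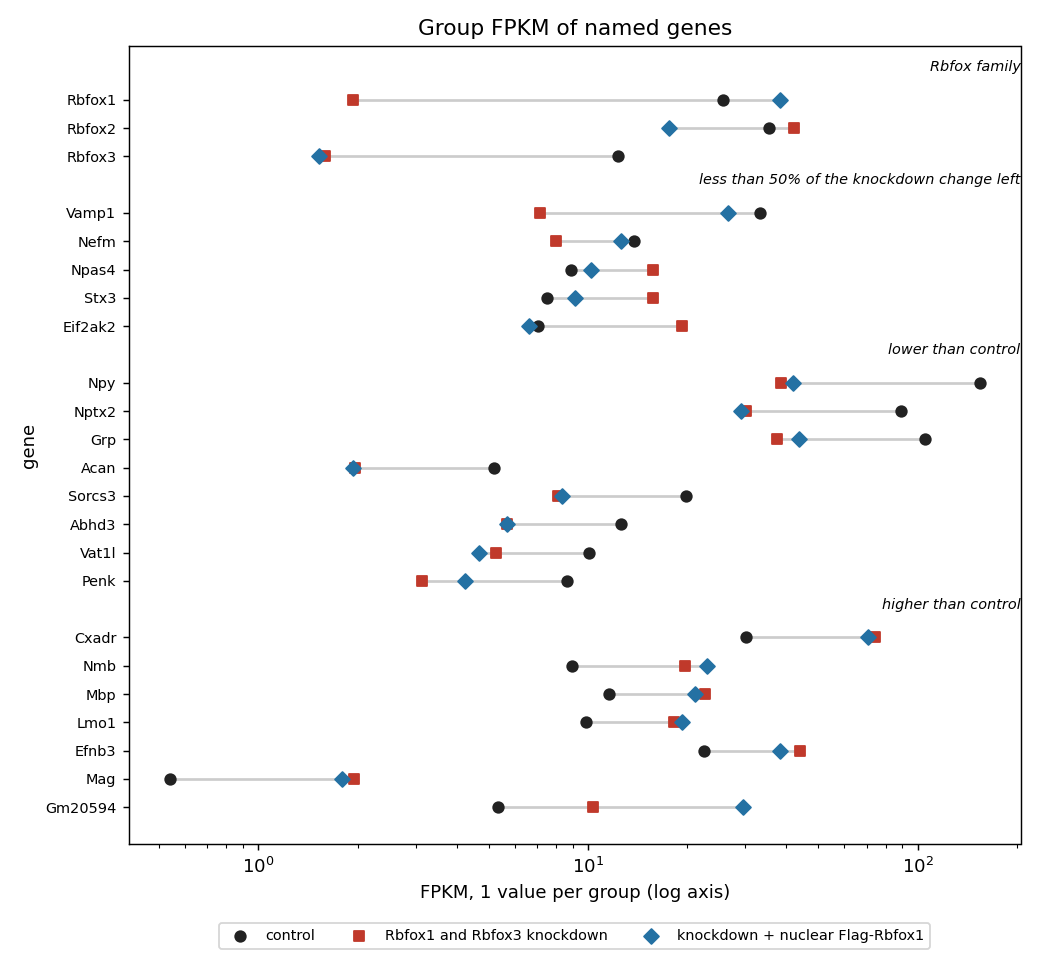
FPKM of named genes (log horizontal axis) in the control (black circles), the knockdown (red squares) and the nuclear rescue (blue diamonds), 1 value per group with no error bars since only group values were deposited. In the rows from Npy to Penk and from Cxadr to Mag the diamond lies nearer the square than the circle. It lies beside the circle in Vamp1 and Eif2ak2, and apart from both in Rbfox2 and Gm20594.

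A pair of myelin genes was higher in the nuclear rescue, while no astrocyte or microglia marker passed. Mag, a myelin-associated glycoprotein, stood at 0.538 FPKM in the control, 1.95 in the knockdown and 1.79 in the nuclear rescue (log2 ratio 1.74, error 0.31, adjusted p = 1.98e-05 by the z test). Mag was below 1 FPKM in the control and entered the comparison only through the nuclear rescue, so its ratio rests on low levels. Mbp, myelin basic protein, stood at 11.6, 22.6 and 21.1 FPKM (log2 ratio 0.86, error 0.23, adjusted p = 0.0228 by the z test). Gpr17, a receptor of oligodendrocytes that are still maturing, was lower, at 8.60, 4.12 and 5.18 FPKM (log2 ratio -0.73, adjusted p = 0.0420). Of 12 oligodendrocyte lineage genes tested, 2 were thus higher, 1 was lower and 9 did not pass, with a median of 0.22. Over all genes tested, 0.244% were higher and 0.577% lower. The list was chosen with earlier results of these data known, so nothing is read from these shares. The precursor genes Pdgfra and Cspg4 had log2 ratios of -0.00 and 0.02.

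The markers of the other cells that such a culture can hold were summed as a check of what moved beside these results. Summed FPKM of 13 neuronal markers was 2536 in the control, 2496 in the knockdown and 2574 in the nuclear rescue, and that of the oligodendrocyte lineage list was 286, 304 and 313. Astrocyte markers summed to 2447, 2503 and 2321, and 0 of 14 passed. Microglia markers summed to 34.8, 26.2 and 24.8, and 0 of 7 passed, but all 7 had log2 ratios below 0, with a median of -0.58. With the larger implied error alone, 3 of the 7 were called lower, namely C1qa, C1qc and Cd68, where 1.91% of all genes tested were. The list was chosen with earlier results of these data known, so nothing is read from this share. Genes of dividing cells summed to 281, 320 and 325, and 0 of 14 passed, while all 14 had ratios above 0, with a median of 0.21. Vascular and fibroblast markers summed to 107, 127 and 110, with 0 of 8 passing. Over all genes tested 0.821% passed, so 0 calls in lists of this size do not set them apart from other genes. The culture thus carried RNA of glia and of dividing cells in every group, and the part these cells have in the changed genes was not tested.

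A small set of knockdown genes lay nearer the control than the knockdown on the log2 scale. Counting those with less than 50% of the knockdown's log2 change left, 8 of the 201 fallen and 6 of the 109 risen genes met the mark, and they are named here after their values were seen. Vamp1, a vesicle SNARE protein of synapses, stood at 33.3 FPKM in the control, 7.18 in the knockdown and 26.5 in the nuclear rescue, so that 14.8% of the change was left. Eif2ak2, the kinase PKR that responds to double-stranded RNA, stood at 7.06, 19.3 and 6.63 FPKM. Stx3, a membrane-bound SNARE partner, stood at 7.49, 15.8 and 9.16 FPKM, with 27.1% left. In these genes the nuclear rescue lay nearer the control than the knockdown, and the log2 ratios against the control were -0.33, -0.09 and 0.29, each with an adjusted p of 0.9999 by the z test. The activity-regulated transcription factor Npas4 (8.88, 15.8 and 10.2 FPKM) and the neurofilament gene Nefm (13.8, 8.02 and 12.6 FPKM) also met the mark. Kcnq3, a subunit of the potassium channel that carries the M current, stood at 14.2, 9.02 and 11.8 FPKM, with 39.9% left. The others were Camta1, Fkbp14, Tgfbi, Egr2, Atp2b4, Pcnxl2, 6330527O06Rik and Rbfox1 itself, of which Pcnxl2, 6330527O06Rik and Rbfox1, like Eif2ak2, ended on the far side of the control. Not all of the set differed from the knockdown by the authors' test. Nefm, Kcnq3, Camta1, Fkbp14, Tgfbi, Egr2 and Atp2b4 were not called there, with q-values from 0.0657 to 0.695.

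The authors' deposited table of nuclear rescue against knockdown called 17 genes at a q-value below 0.05 (0.11% of its genes), and 13 of these had 1 FPKM or more in control or nuclear rescue. Of these 13, 3 differed from the control by the z test, namely Rbfox2, Iyd and Gm20594. The other 10 did not pass, namely Rbfox1, Vamp1, Eif2ak2, Npas4, Stx3, Pcnxl2, 6330527O06Rik, Lats1, Tmem2 and Sema4f. Lats1, a kinase of the Hippo pathway, stood at 6.16 FPKM in the control, 7.06 in the knockdown and 4.62 in the nuclear rescue, below both (log2 ratio -0.41, adjusted p = 0.731). Tmem2 stood at 8.44, 10.3 and 6.75 FPKM, in the same order of groups.

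Of the 101 genes called, 8 had not been called in the knockdown by the authors' deposited table. Rbfox2, described above, was the 1 of these that was lower. Gm20594 (chr6:79768025-79768358) stood at 5.32 FPKM in the control, 10.4 in the knockdown, 8.57 in the cytoplasmic rescue and 29.5 in the nuclear rescue (log2 ratio to control 2.47, error 0.36, adjusted p = 1.94e-08 by the z test). Iyd, an enzyme that recovers iodide, stood at 0.632, 0.906 and 1.83 FPKM in control, knockdown and nuclear rescue (log2 ratio 1.54, error 0.37, adjusted p = 0.0107). Kcng1, a modifying potassium channel subunit, stood at 0.431, 0.812 and 1.18 FPKM (log2 ratio 1.45, adjusted p = 0.0123). In all 3 the nuclear rescue was the highest of the groups, and for Iyd and Kcng1 at low levels. Iyd and Kcng1 were below 1 FPKM in the control and entered the comparison only through the nuclear rescue. The remaining 4 were Rnf5, Rps16, Hist1h4b and Hist2h4, with log2 ratios from 0.71 to 0.85; Rps16 and the histone genes have near-identical copies in the genome, so their values are uncertain. Rnf5 was the last gene but 1 inside the threshold (adjusted p = 0.0491), next to Gad2, and the first outside were Calb2 and Nptx1 at 0.05002.

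The nuclear rescue was tested against the cytoplasmic rescue in the same way. These 2 groups differed in the level of Rbfox1 RNA (38.2 against 16.1 FPKM) as well as in the isoform, and effects of level and isoform cannot be told apart. Of 14874 genes tested in both rescue tables, 4 (0.0269%) differed. Rbfox1 was higher in the nuclear rescue (38.2 against 16.1 FPKM, log2 difference 1.25, error 0.24, adjusted p = 0.000897), as were Gm20594 (1.78, adjusted p = 0.000897) and Iyd (1.84, adjusted p = 0.00716). Ptgs2, the activity-regulated cyclooxygenase, was lower, at 14.4 against 27.1 FPKM (-0.91, adjusted p = 0.0309). Of the 101 genes that differed between nuclear rescue and control, 2 therefore differed between the rescues. Rbfox2, at 17.7 against 33.2 FPKM, did not pass (log2 difference -0.91, adjusted p = 0.389). With the larger implied error alone, 26 genes (0.175%) differed. Of these, 5 were among the 101, namely Gm20594, Iyd, Rbfox2, Nptx2 and Tll1, and the adjusted p of Rbfox2 was then 0.000424 by the z test.

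**Figure D3:**
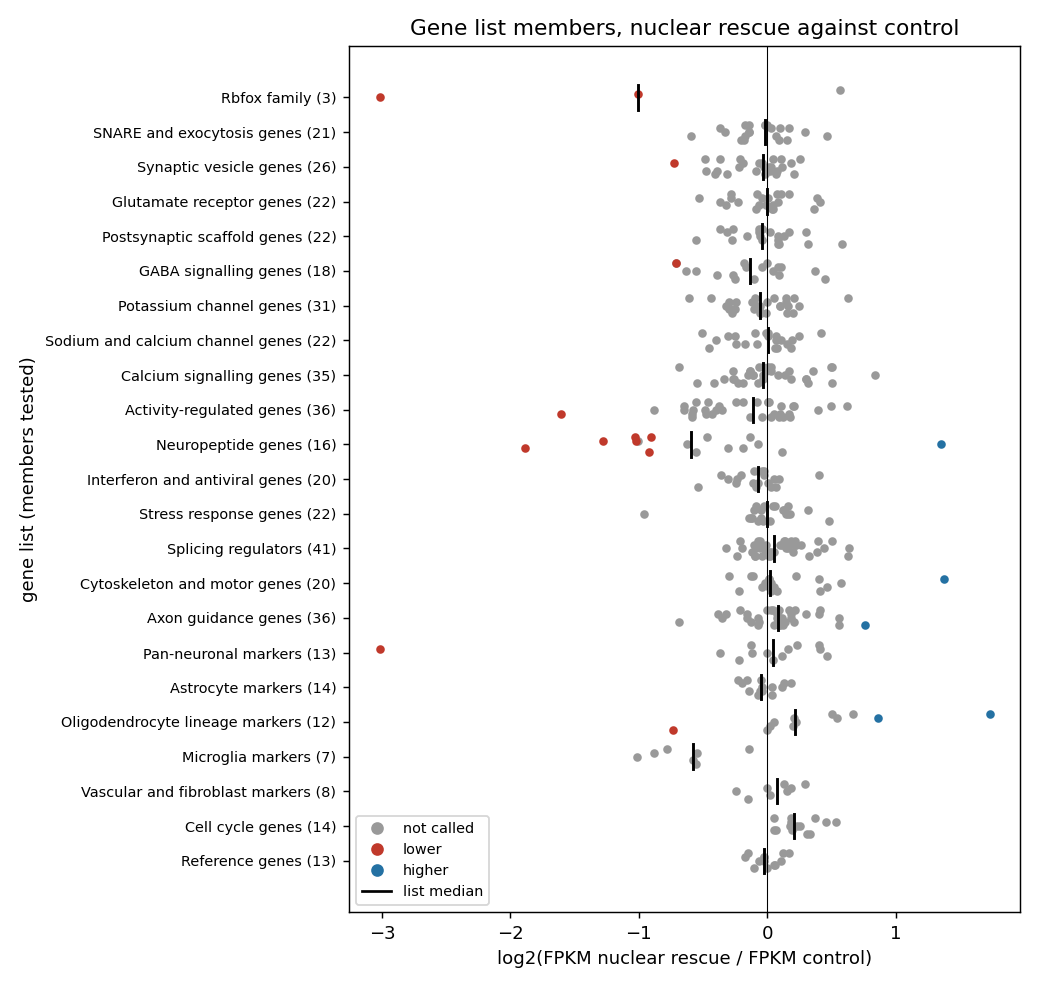
Log2 ratio of nuclear rescue over control for each tested member of 23 gene lists, with the number of members tested in parentheses, called members in red (lower) or blue (higher) and the list median as a black bar. Neuropeptide genes have a median of -0.59 and microglia markers -0.58, and oligodendrocyte lineage markers lie at 0.22, while most other medians lie close to 0.

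In all, 17 distinct genes of the 459 listed and tested passed, where 0.821% of all genes tested did. Splicing regulators other than Rbfox, 41 of which were tested, had 0 calls and a median of 0.06. Interferon and antiviral genes had 0 of 20 and a median of -0.07, stress response genes 0 of 22 and a median of -0.00, and the commonly used reference genes 0 of 13 and a median of -0.03. Prph was the 1 of 20 cytoskeleton and motor genes that passed. With the larger implied error alone, 2 splicing regulators were called higher, Nova2 among them, and Hspb1 lower among the stress genes. The interferon and reference lists still had none, where 3.27% of all genes tested were called.

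Exon inclusion returned close to the control in most of the 65 joined exons, which belong to 64 genes. These exons were in both tables because the authors called each of them as different from the knockdown in both comparisons, so their distance from the knockdown is fixed by the choice; the 149 exons of the control table that are not in the nuclear rescue table have no nuclear rescue value here. The inclusion fraction, from 0 for an exon always skipped to 1 for one always included, is the authors' estimate per group. Nuclear rescue and control differed by a median of 0.038 in absolute value, and 41 of the 65 differed by at most 0.05. Knockdown and control differed by a median of 0.152 in the same exons. In 28 exons the fraction was higher in the nuclear rescue than in the control, in 36 lower and in 1 equal, and the direction was beyond the control in 31, between control and knockdown in 33. Of the 65 exons, 45 have a length that is a multiple of 3, which keeps the reading frame when the exon is skipped.

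Each exon was tested on its junction reads. Fisher's exact test compared the inclusion and skipping junction reads of the 2 groups, two-sided, adjusted over the 65 exons. Of the 65, 11 (16.9%) passed at an adjusted p of 0.05, 5 with more and 6 with less inclusion in the nuclear rescue. The test compares the pooled reads of these libraries and covers counting error only, not the spread between cultures. Junction reads per exon ranged from 55 to 13410 in the control and from 74 to 13129 in the nuclear rescue. Of the 11, 8 lay beyond the control, on the side away from the knockdown, and 3 lay between the control and the knockdown. With the reads of both inclusion junctions averaged instead of summed, an alternative chosen after the data were seen, 8 passed, and Kif21a and Eml1 were among those that did not.

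The sequences of 8 of the 11 called exons are printed so that a reader can see their lengths and any motif in them. They were read from GENCODE M21 transcripts, in which 55 of the 65 exons were found by gene symbol and by the lengths of consecutive exons, without converting coordinates. Both neighbouring exons matched in length for those printed, except mKIAA0787, where 1 did. The cassette exon is in capitals and up to 12 bases of each neighbouring exon are in lower case, 5′ to 3′ on the gene's strand; each name is followed in the text by its mm9 position. Prpf18 was matched in a transcript where the exon is not coding, and Ash2l was not matched; neither is printed.

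Camk2g: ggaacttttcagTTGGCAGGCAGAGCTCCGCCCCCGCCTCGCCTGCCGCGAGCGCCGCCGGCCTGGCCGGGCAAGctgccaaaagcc
Eml1: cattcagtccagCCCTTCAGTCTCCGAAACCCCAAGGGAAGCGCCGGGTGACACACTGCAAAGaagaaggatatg
mKIAA0787: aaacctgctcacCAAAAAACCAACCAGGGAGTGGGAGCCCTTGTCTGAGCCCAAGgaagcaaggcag
Tnk2: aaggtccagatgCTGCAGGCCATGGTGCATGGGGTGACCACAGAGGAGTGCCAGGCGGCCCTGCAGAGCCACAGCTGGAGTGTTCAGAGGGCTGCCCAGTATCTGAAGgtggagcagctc
Stxbp5l: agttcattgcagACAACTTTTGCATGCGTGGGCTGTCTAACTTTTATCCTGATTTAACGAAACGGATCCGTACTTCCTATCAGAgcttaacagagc
Kcnd3: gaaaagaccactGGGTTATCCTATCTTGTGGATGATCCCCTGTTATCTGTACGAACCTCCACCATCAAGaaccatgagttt
Lmo7: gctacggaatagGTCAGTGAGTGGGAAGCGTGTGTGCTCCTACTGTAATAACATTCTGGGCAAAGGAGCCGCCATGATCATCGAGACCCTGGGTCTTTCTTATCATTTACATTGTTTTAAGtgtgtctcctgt
Kif21a: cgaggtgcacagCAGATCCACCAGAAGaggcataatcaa

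The Rbfox motif TGCATG, searched on the sense strand, is in the Stxbp5l and Tnk2 exons and in none of the other 6 printed. It is also in 4 exons that were not called, and so in 6 of the 55 exons matched. Among all coding internal exons of GENCODE M21 with the same length, 14 of 1216 exons of 72 nt (1.15%) and 46 of 1641 exons of 96 nt (2.80%) hold it. Introns, where Rbfox proteins also bind, were not examined here. A match of these letters is a description and says nothing on binding.

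Of the 5 exons called with more inclusion, 4 had been reduced by the knockdown and rose above the control. The 63-nt exon of Camk2g (chr14:21576888-21576950, minus strand), a calcium- and calmodulin-dependent kinase subunit, had an inclusion fraction of 0.352 in the control, 0.137 in the knockdown and 0.599 in the nuclear rescue. Its junction reads were 222 for inclusion and 268 for skipping in the control, and 435 and 189 in the nuclear rescue (adjusted p = 1.49e-14 by Fisher's exact test). This was the largest difference from the control among the 65 exons. The 43-nt exon listed as mKIAA0787 (chr5:123186997-123187039, minus strand), which the table describes as the kinase that activates such kinases (Camkk2), had fractions of 0.686, 0.326 and 0.813 (adjusted p = 0.00143). The 51-nt exon of Eml1 (chr12:109741393-109741443), a microtubule-binding protein, had fractions of 0.307, 0.125 and 0.470 (adjusted p = 0.0366). The 27-nt exon of Prpf18 (chr2:4569143-4569169, minus strand), a splicing factor, had 0.366, 0.183 and 0.501 (adjusted p = 7.98e-05). In these 4 exons the knockdown was the lowest and the nuclear rescue the highest of the 3 groups.

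Another 4 exons went beyond the control in the opposite direction, less included than in the control after having been more included in the knockdown. The 72-nt exon of Stxbp5l (chr16:37186737-37186808, minus strand), a tomosyn that binds syntaxin, had fractions of 0.563 in the control, 0.674 in the knockdown and 0.347 in the nuclear rescue. Its junction reads were 168 for inclusion and 63 for skipping in the control against 100 and 91 in the nuclear rescue (adjusted p = 0.000304 by Fisher's exact test). The 57-nt exon of Kcnd3 (chr3:105469880-105469936), a potassium channel of the A-type current, had 0.466, 0.743 and 0.309 (adjusted p = 0.00148). For both, the nuclear rescue was the lowest of the 3 groups. The 18-nt exon of Ash2l (chr8:26940847-26940864, minus strand), a subunit of histone methyltransferase complexes, had 0.379, 0.506 and 0.251 (adjusted p = 1.02e-06), and the 109-nt exon of Lmo7 (chr14:102330389-102330497), a LIM-domain protein, had 0.269, 0.385 and 0.188 (adjusted p = 0.00203).

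In the remaining 3 called exons, those of Kif21a and Tnk2 among them, the return was partial. The 15-nt exon of Kif21a (chr15:90778755-90778769, minus strand), a kinesin motor, had fractions of 0.817 in the control, 0.543 in the knockdown and 0.695 in the nuclear rescue (adjusted p = 0.0381 by Fisher's exact test). The 96-nt exon of Tnk2 (chr16:32680986-32681081), a tyrosine kinase that binds Cdc42, had 0.472, 0.683 and 0.553 (adjusted p = 0.00762). By the fraction, the nuclear rescue of both lay between the control and the knockdown and nearer the control. By the share of junction reads, Tnk2 stood at 47.1%, 73.1% and 61.9% in control, knockdown and nuclear rescue, so nearer the knockdown. Kif21a stood at 78.8%, 52.3% and 65.6% by that share, about midway. The 46-nt exon of Stx3 (chr19:11864538-11864583, minus strand) had the widest knockdown change of the named exons, with fractions of 0.563, 0.102 and 0.478, and its nuclear rescue did not differ from the control by this test (adjusted p = 0.425).

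**Figure D4:**
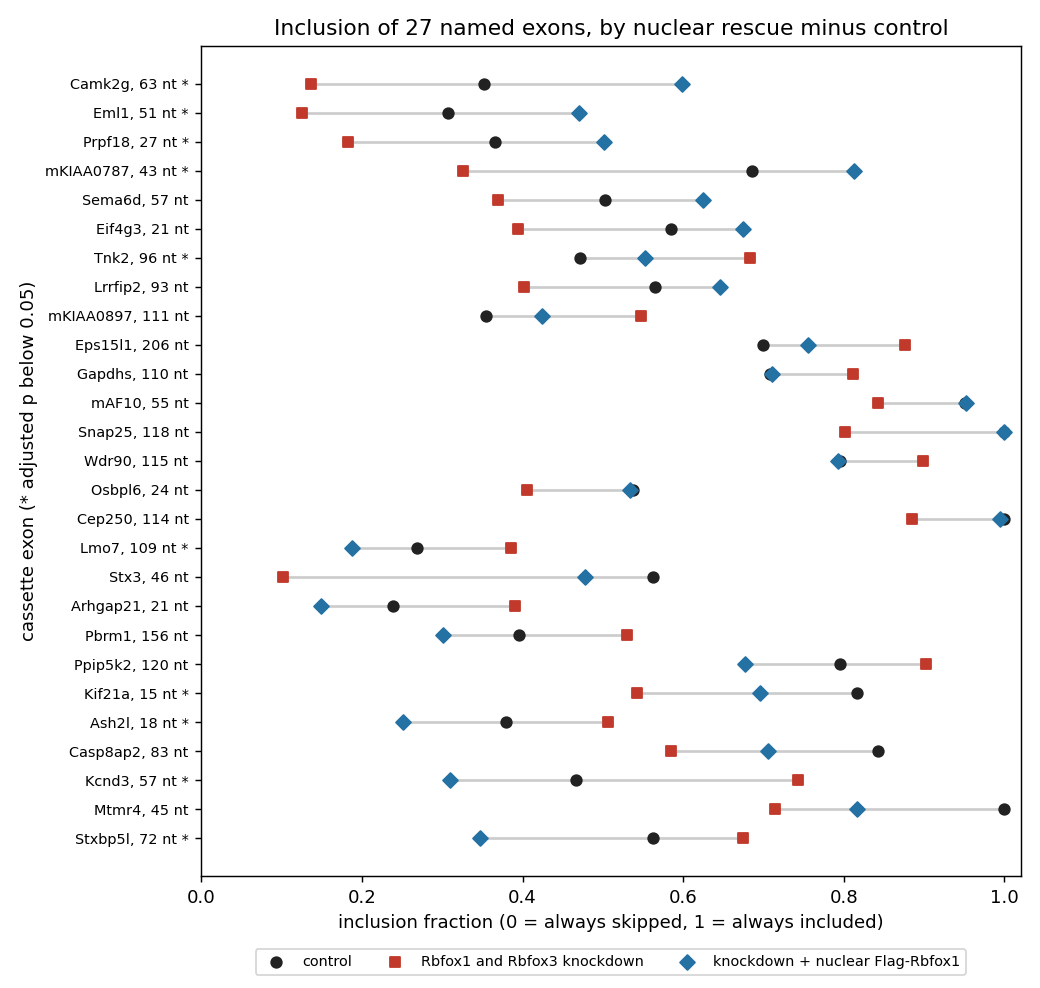
Inclusion fraction (horizontal axis) of 27 named exons in the control (black circles), the knockdown (red squares) and the nuclear rescue (blue diamonds), ordered by nuclear rescue minus control, with the exon length in nt and an asterisk for the 10 of them that passed. From Camk2g to mKIAA0787 at the top the diamond lies past the circle on the side away from the square, and in Stxbp5l and Kcnd3 near the bottom, where the knockdown had raised inclusion, it also lies past the circle on the side away from the square.

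The exons that ended closest to the control differed from it by 0.004 or less. They were in Snap25, Cep250, Osbpl6, Wdr90, mAF10 and Gapdhs. The 118-nt exon of Snap25, a core SNARE protein, had fractions of 0.999 in the control, 0.802 in the knockdown and 0.999 in the nuclear rescue, but its junction reads showed inclusion of 99.9% in the control and 99.8% in the knockdown, so the fraction of the knockdown was not matched by these reads. The 24-nt exon of Osbpl6, an oxysterol-binding protein, had 0.537, 0.405 and 0.534. In 4 further exons, in Agrn, Rabgap1l, Scn2a1 and the 108-nt exon of Kif21a, the control fraction differed by more than 0.2 from the share of junction reads. The fraction and the share of junction reads had the same sign of difference in all 11 called exons.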

How the data were processed

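RNA from cultured mouse hippocampal neurons was depleted of ribosomal RNA with Ribo-Zero, made into TruSeq libraries without strand information and sequenced paired-end at 50 nt, per the labels' protocols. Without strand, reads of a gene and of an antisense partner cannot be told apart. CASAVA, Cufflinks and the mouse build mm9 are named in the submitters' processing notes, with versions not given in the sources used here. For each group and gene the authors deposited 1 FPKM value, with a log2 fold change (read as a score, since infinite values are written as very large numbers), a test statistic score, a p-value and a q-value against the knockdown. Their splicing tables give a deposited inclusion fraction per group and deposited counts of junction reads. Another 36 value columns were not used. Because library totals were not used here, depth per sample is unknown for gene levels, and the precision rests on the implied errors.

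The members, gene lists and tests were chosen with earlier results of these data known. The deposited fold changes summed to the log2 FPKM ratio within 9.37e-05, and the deposited p-value equalled the normal tail of its statistic within 2.81e-06. Genes needed 1 FPKM in either group and an implied error below 1 in both tables, with no pseudocount; 207 of 12516 were not tested, 17 of them small RNAs listed at 0 in 1 group. A limma fit on library values had been planned and was replaced by the z test, since the tables hold group values. On simulated data for the comparison with the control (12309 genes), the z test found 87% of the genes with a true log2 change of 1 and 99% of those with a change of 2. That simulation assumed that part of each error belongs to the shared knockdown group. Fisher's exact test, on 65 simulated exons, recovered 100% of those changed, with 1 false call. The simulated exon shift was larger than any difference seen between the 2 groups, so the 100% does not apply to differences of the size seen here. Text genes were the 3 Rbfox genes, the 15 called genes with the largest ratio each way, the 12 largest each way at 5 FPKM or more, the 10 largest knockdown changes each way, the authors' calls in the nuclear rescue and the 2 outermost genes each way of 23 lists (525 genes, 502 in the tables). All members of a list that passed were named in addition where a list is described, and others were named after their values were seen. Text exons were the 10 largest differences each way with 20 junction reads or more per group, the 6 smallest and all that passed; a few genes and 1 exon are not reported here. Locus starts were taken as 0-based, since 3611 spans then equal a RefSeq gene length against 320 otherwise. Analyses used Python 3.11.15, pandas 2.3.3 and SciPy 1.17.1, and the alternatives tried are given in the closing section.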

Additional observations from a re-analysis of the deposited data

Results flagged for a closer look

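A test of the difference between the 2 rescue groups, each read against the same knockdown, singled out 4 genes. Rbfox1 was higher in the nuclear than in the cytoplasmic rescue by a log2 difference of 1.25, with 38.2 against 16.1 FPKM. Gm20594 was higher by 1.78, with 29.5 against 8.57 FPKM. Iyd was higher by 1.84, with 1.83 against 0.510 FPKM. Ptgs2 was lower, with a log2 difference of -0.91 and 14.4 against 27.1 FPKM. With 2 samples a group and 1 value per group, no sample can be checked for standing apart from the others of its group.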

How the results depend on the processing

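The count of genes that differed between nuclear rescue and control moved most with the error. The larger implied error alone gave 402 (235 lower, 167 higher) in place of 101, and an adjusted p below 0.01 gave 47 (38 lower, 9 higher). All 101 remained among the 402. Under the other settings (no FPKM minimum, a minimum of 5 FPKM, centring, no limit on the implied error) it lay between 76 and 109. Gad2 lost its call without the FPKM minimum (adjusted p = 0.0549) and without the limit on the error (adjusted p = 0.0507). Genes changed by 2-fold or more numbered 98, tested or not (68 lower, 30 higher); log2(FPKM + 1) gave 60 (31 lower) and a minimum of 5 FPKM gave 50 (30 lower). With the larger error, 229 of the 310 knockdown genes differed from control in place of 93, 48 listed genes passed in place of 17, and 26 genes differed between the rescues in place of 4. Exon calls lay between 8 and 11 under every alternative run, and no called gene or exon that the text names reversed. The larger error for the lists and for the rescues, the averaged inclusion reads, the error limit and the centring of lists and of knockdown genes were chosen after seeing the data. No paired analysis was possible because the tables hold 1 value per group; the replicate block and leaving out each replicate were not run for the same reason. With no library values, a change carried by 1 of 2 libraries cannot be seen. Exons not called by the authors in both tables were not analysed here.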

Other observations

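Some of the widest differences between nuclear rescue and control lay in genes that could not be tested, because the deposited statistic gave no usable error. Of the 98 genes changed by 2-fold or more, 22 were microRNA or small nucleolar RNA genes among the 28 without a test. Lars2, a mitochondrial leucyl-tRNA synthetase, was listed at 61.8 FPKM in the control, 155 in the knockdown, 164 in the cytoplasmic rescue and 1347 in the nuclear rescue, a log2 ratio to control of 4.44. Plod3, a collagen-modifying enzyme, stood at 11.2, 10.9, 12.1 and 25.1 FPKM in the same order. For both, the nuclear rescue was alone in its high value. The combined locus listed as A330076H08Rik,Mir344g stood at 2.67 FPKM in the control and 2.35 in the cytoplasmic rescue, against 258 in the knockdown and 268 in the nuclear rescue. Whether such values are shared by both libraries of a group was not tested.

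A further pair of lower genes encodes proteins that are secreted. Ctgf, a matrix-associated growth factor, stood at 3.31 FPKM in the control, 1.99 in the knockdown and 1.58 in the nuclear rescue (log2 ratio -1.07, adjusted p = 0.0157 by the z test), and Tgfb2, a transforming growth factor, at 8.90, 6.06 and 5.02 FPKM (log2 ratio -0.83, adjusted p = 0.00547). In both the nuclear rescue lay below the knockdown, but the authors' deposited table gave q-values of 0.999995 and 0.818 for nuclear rescue against knockdown. Both were chosen after their values were seen.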
